A study of Coturnix japonica with 20 samples.

Results

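The genes described here are those with a much higher level after 17α-ethinylestradiol (EE2), a synthetic estrogen, than after solvent alone in the liver of Japanese quail (Coturnix japonica) embryos; most were close to undetected after solvent. A gene was taken when its mean over the 10 EE2 libraries was at least 1 CPM, the gene's counts scaled to a common library total, and at least 8 times its mean over the 10 solvent libraries. Of 16066 genes, 65 passed, and ELOVL2, LOC107319112 and MYL2 were then left out by name, which left 62. These levels chose the genes, so the EE2 levels of the 62 are given as a description and carry no test.

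The libraries came from the left liver lobe of quail embryos at embryonic day 9. Eggs had received 10 µl into the air cell before incubation, either of dimethyl sulfoxide (DMSO, the solvent) or of EE2 in that solvent at 3.33 µg per g of egg. The solvent groups held 5 males and 5 females, and the EE2 groups held 4 males and 6 females. No genetic modification is named in the labels, and all embryos, controls included, had received the solvent. Library totals ranged from 15298506 estimated counts (solvent female 9) to 32119466, and the second lowest was 26776988.

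Estrogen acts in the liver of egg-laying vertebrates mainly through nuclear estrogen receptors, which bind DNA and change transcription of nearby genes. In laying birds this makes the liver the source of yolk precursors and of part of the egg's inner coat, proteins that males and young birds normally make little of but can be made to produce by estrogen. Many of the genes below have only a locus number in the annotation used here, so no protein name or role is given for them.

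"Silent" described most of the 62 genes but not all. The solvent mean was under 1 CPM for 49 of them and under 0.1 CPM for 20, and INS and LOC107323147 had 0 counts in every solvent library. The other 13 were at 1 CPM or more, and 4 were at 5 CPM or more, namely TCN2 at 33.0 CPM, CDKN1C at 9.75, LOC107317565 at 6.28 and LOC107319873 at 5.50. After EE2, 8 genes averaged at least 100 CPM, 16 averaged 10 to 100 CPM and 38 averaged less than 10 CPM, of which 20 were under 2 CPM. Just inside the ratio of 8 lay LOC107324353 at 8.13, DRC7 at 8.68 and NTS at 8.71, and just outside it lay GRM8 at 7.87, LOC107322045 at 7.83 and DUSP8 at 7.68. In all, 25 genes carried only a locus number and 37 had a name.

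Together the 62 genes took 0.00741 ± 0.00114% of the counts in solvent males (SD, n = 5) and 0.00964 ± 0.00292% in solvent females (n = 5). They took 5.59 ± 2.65% in EE2 males (n = 4) and 6.98 ± 1.47% in EE2 females (n = 6). LOC107317565, LOC107319873 and LOC107317352 made up most of that, with 5.20 ± 2.42% of all counts in EE2 males and 6.30 ± 1.19% in EE2 females. The other 59 genes shared 0.389 ± 0.278% and 0.677 ± 0.425%. In whole tissue, a larger share of expressing cells and more RNA per cell cannot be told apart.

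**Figure D1:**
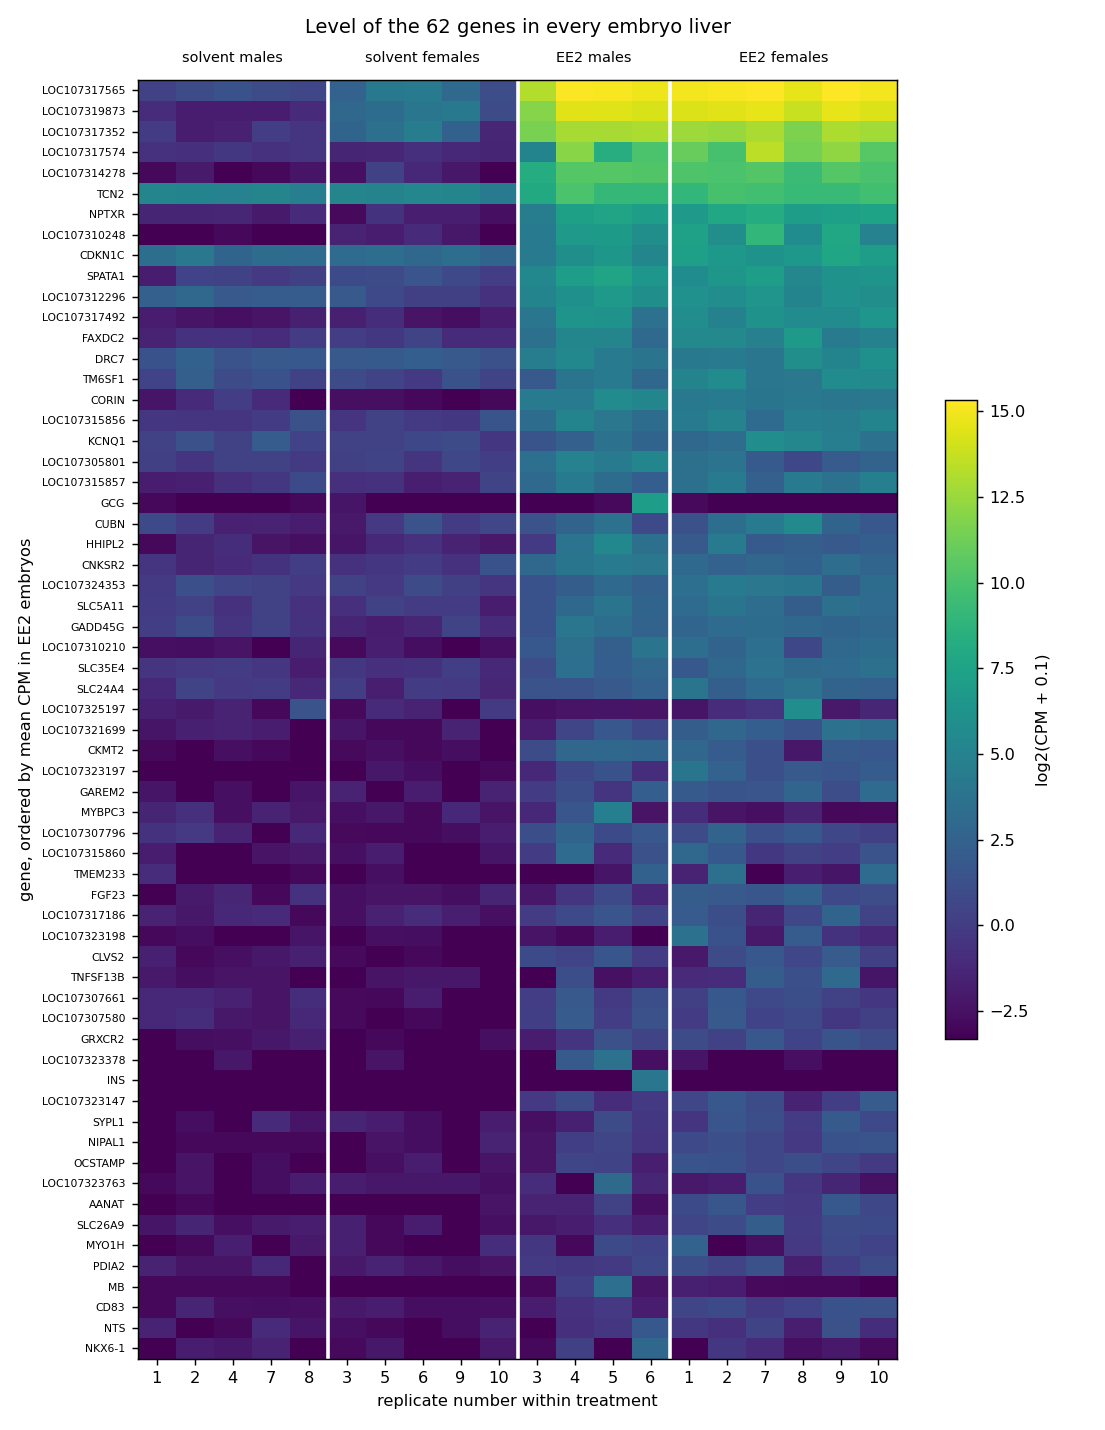
Level of each of the 62 genes (rows, ordered by mean CPM in EE2 embryos) in each of the 20 libraries (columns, grouped by treatment and sex), as log2(CPM + 0.1). The first rows are high in every EE2 library, while GCG, INS and MYBPC3 are high in 1 or 2 EE2 males only.

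The response was not equally even across the genes. For 34 of the 62, all 10 EE2 libraries lay above every solvent library. For 15, 8 or 9 did, and for 13 fewer did. The rule used these same libraries, so the choice of genes favoured such separation. The share of all genes with it was not counted, and these counts only describe the members. Applied to each sex alone, the same level and ratio were met by 30 genes in both sexes, by 9 in males only, by 22 in females only and by 1, NTS, in neither. When each library was left out in turn, 47 genes met the rule every time and 15 did not at least once. EE2 male 3 was the lowest of the 10 EE2 libraries, or tied for lowest, for 32 of the 62 genes. That is 51.6%, against 36.8% of all genes with a level of at least 1 CPM. Ties were counted for EE2 male 3 in both shares, as for GCG, INS, TMEM233 and LOC107323378, which were at 0 CPM there and in other EE2 libraries. EE2 male 3 was the highest for 0 of the 62, beside 5.52% of all genes with a level of at least 1 CPM. The 62 genes took 1.75% of its counts against at least 4.72% in each EE2 female.

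The largest share of counts among the members after EE2 went to LOC107317565 on chromosome 8. Its solvent males were at 1.21, 1.81, 2.48, 1.92 and 1.49 CPM, and its solvent females at 5.73, 18.7, 19.2, 8.30 and 2.02 CPM. Its EE2 males were at 9490, 38623, 35597 and 29660 CPM, and its EE2 females ran from 24953 to 41259 CPM with a median of 35206. No EE2 library came near a solvent library, and EE2 male 3 was the lowest of the exposed embryos. The EE2 mean was 5150 times the solvent mean.

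LOC107319873 on chromosome 1 was at 0.416, 0.187, 0.167, 0.188 and 0.382 CPM in solvent males. In solvent females it was at 7.75, 9.43, 15.8, 18.9 and 1.88 CPM, so every solvent female was above every solvent male. After EE2 the males were at 4027, 23267, 21531 and 18890 CPM and the females between 14188 and 25765 with a median of 22019. The exposed sexes overlapped. On log2(CPM + 0.1) over the 10 EE2 libraries this locus and LOC107317565, on another chromosome, had a Pearson correlation of 0.997, given as a description since the values share libraries and EE2 male 3 is far below the rest for both.

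LOC107317352, directly beside LOC107317565 in gene order, was at 0.866, 0.187, 0.234, 0.942 and 0.625 CPM in solvent males. It was at 6.33, 11.5, 23.1, 5.49 and 0.308 CPM in solvent females, of which female 10 alone lay within the male range. The EE2 males were at 3080, 7743, 7538 and 8496 CPM and the EE2 females between 3142 and 8358 with a median of 6524.

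LOC107317574, also on chromosome 8 and 10 genes from SPATA1, had the largest ratio of any member that had solvent counts, 6415. Its solvent libraries were between 0.273 and 0.703 CPM. Its EE2 males were at 33.6, 4211, 318 and 1038 CPM, and its EE2 females ran from 966 to 11348 CPM with a median of 2415. The exposed embryos therefore differed among themselves far more for this locus than for the loci above, and still none overlapped a solvent library. LOC107314278 on chromosome 1 was more even, with EE2 males at 303, 1380, 1336 and 1260 CPM and EE2 females between 672 and 1374 CPM with a median of 1129. Its solvent libraries were at 0 to 1.14 CPM.

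Transport and binding proteins were among the named genes. TCN2, transcobalamin, carries vitamin B12 in blood. Solvent libraries were between 20.8 and 40.6 CPM. EE2 males were at 255, 1049, 555 and 558 CPM, and EE2 females at 513 to 943 CPM with a median of 709. All 10 exposed embryos were above all 10 controls, and the ratio of means was 20.4. CUBN, cubilin, an endocytic receptor that takes up the intestinal B12 complex and other ligands, averaged 0.899 ± 0.789 CPM in solvent embryos and 11.2 ± 13.4 CPM in EE2 embryos (SD, n = 10 each). One exposed female, replicate 8, held 40.3% of the EE2 sum for CUBN, and 8 of 10 EE2 libraries were above every solvent library. SLC5A11, a sodium-coupled myo-inositol transporter, averaged 0.767 CPM in solvent embryos and 9.09 in EE2 embryos.

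NPTXR, the neuronal pentraxin receptor, is known as a synaptic membrane protein. It was between 0.0356 and 0.568 CPM in the solvent libraries. Its EE2 males were at 23, 159, 195 and 131 CPM and its EE2 females between 110 and 299 CPM with a median of 164. The summed level of 9 neuron markers was 19.7 to 33.6 CPM in solvent libraries and 19.1 to 37.9 CPM in EE2 libraries. TUBB3 alone made up most of that sum, at 15.6 to 29.7 CPM in solvent and 16.3 to 32.3 CPM in EE2 libraries. SNAP25 was under 0.5 CPM in every library. The part of neurons in the NPTXR values was not tested. CORIN, the membrane protease that activates natriuretic peptide precursors, averaged 0.203 ± 0.304 CPM in solvent and 23.5 ± 11.4 CPM in EE2 embryos (SD, n = 10 each). LOC107310248 was at 0 CPM in 4 solvent males and 1 solvent female and at most 0.359 CPM in the others. After EE2 it was at 21.7 to 117 CPM in males and 31.1 to 523 CPM in females. LOC107317492 on chromosome 8 was at most 0.435 CPM in solvent embryos, and at 12.1 to 82.0 CPM in exposed males and 29.7 to 91.3 CPM in exposed females. LOC107323147, with 0 solvent counts, was at 0.269 to 4.07 CPM in EE2 embryos, at least 150.4-fold higher when 3 counts over the 10 solvent libraries are taken as the floor.

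CDKN1C, which encodes a cyclin-dependent kinase inhibitor and restrains the cell cycle, and KCNQ1, a potassium channel subunit, lie side by side on chromosome 5. CDKN1C solvent libraries were at 6.43 to 17.9 CPM. The EE2 males were at 21.5, 63.8, 92.3 and 38.4 CPM and the EE2 females at 77.6 to 202 CPM with a median of 119. KCNQ1 averaged 1.66 ± 1.02 CPM in solvent and 17.8 ± 17.4 CPM in EE2 embryos (SD, n = 10 each), and 9 of 10 EE2 libraries were above every solvent library. Both met the rule in females alone and not in males alone. GADD45G, a growth arrest gene on the Z chromosome, averaged 0.765 CPM in solvent and 8.18 CPM in EE2 embryos.

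Among further members with a known role, FGF23, a phosphate-regulating hormone, averaged 2.30 ± 1.81 CPM in EE2 embryos, and TNFSF13B, the B-cell survival factor BAFF, averaged 1.83 ± 2.70 CPM (SD, n = 10 each). AANAT, an enzyme of melatonin synthesis, averaged 1.32 ± 1.15 CPM with 9 of 10 EE2 libraries above all solvent ones. FGF23, TNFSF13B and AANAT each met the rule in females alone and not in males alone. In that order, their solvent means were 0.162, 0.0757 and 0.0134 CPM. Their EE2 means were 0.683, 0.591 and 0.435 CPM in males and 3.38, 2.66 and 1.91 CPM in females. CKMT2, the sarcomeric mitochondrial creatine kinase, was at most 0.0669 CPM in solvent embryos. Its EE2 males were at 1.80, 7.15, 7.99 and 6.68 CPM and its EE2 females ran from 0.134 to 7.22 CPM. All 10 were above the solvent maximum. The highest was EE2 male 5 and the lowest EE2 female 8. The part of muscle in the CKMT2 values was not tested.

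The sex of the embryos did not enter the choice of genes, although the solvent and EE2 means did. A sex difference among solvent embryos was therefore tested, while one among EE2 embryos is described without a p-value, since a gene high in 1 exposed sex could be chosen through that sex alone. Of the 62 genes, 58 passed the filter on low counts, and MB, LOC107323378, GCG and INS did not. In solvent embryos 5 of 58 members (8.62%) were called by edgeR's quasi-likelihood test at an adjusted p under 0.05, beside 1.72% of the 13501 genes tested. The median log2 difference, female minus male, was -0.04 for the members and 0.00 for all genes tested. Without adjustment 13 members had p under 0.05, beside 9.27% of all genes.

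Of the 5, 3 were higher in solvent females, and they are the loci with the highest counts after EE2. LOC107319873 was 5.35 log2 units higher in females (SE 0.601, adjusted p = 9.26e-06, edgeR). LOC107317352 was 4.10 higher (SE 0.710, adjusted p = 0.0018) and LOC107317565 was 2.66 higher (SE 0.467, adjusted p = 0.00182), with all 5 females above all males for LOC107319873 and 4 of 5 for each of the other loci when set against the highest male. Among all genes tested, 0.311% were called higher in solvent females. These 3 calls held when any single library was left out. limma voom called LOC107319873 only, a fit of the solvent groups alone called LOC107319873 and LOC107317565, and DESeq2 called 7 members, all 5 among them.

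The other 2 were higher in solvent males, as were 1.41% of all genes tested. LOC107312296 on chromosome 3 was at 5.13, 7.22, 3.51, 4.15 and 4.24 CPM in solvent males and at 3.59, 1.61, 1.04, 1.05 and 0.547 CPM in solvent females, a difference of -1.53 log2 units (SE 0.382, adjusted p = 0.0472, edgeR). LOC107307580, which is not placed on a chromosome, was at 0.0942 to 0.436 CPM in solvent males and 0 to 0.0356 CPM in solvent females, a difference of -3.74 (SE 0.895, adjusted p = 0.031). The groups overlapped for LOC107312296 by 1 female and not at all for LOC107307580, whose counts were few. Leaving out 1 library ended the LOC107312296 call in 15 of 20 fits and the LOC107307580 call in 8 of 20.

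**Figure D2:**
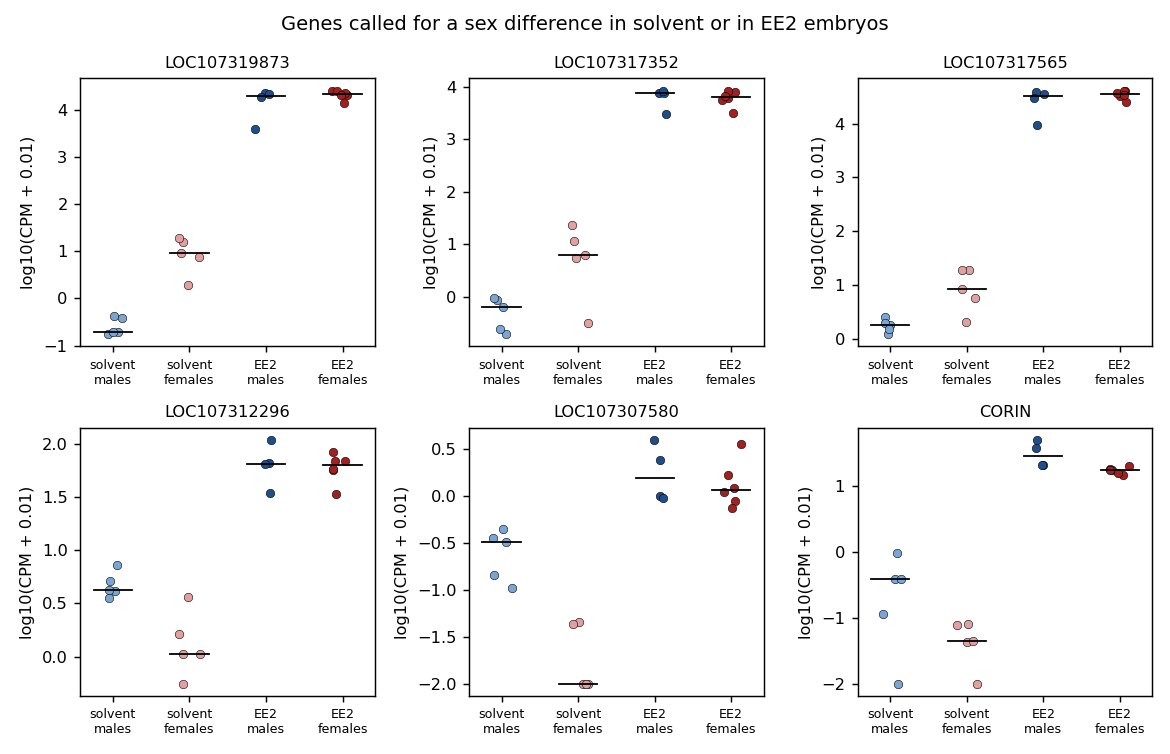
log10(CPM + 0.01) of 6 genes in each embryo, by treatment and sex; each point is 1 library and each bar a group median. Solvent females lie mostly above solvent males for the 3 loci of the upper row, and the exposed sexes overlap there.

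After EE2 the same fit called 6 of 58 members (10.3%), beside 6.47% of all genes tested, 3 of them higher in females (2.21% of all genes) and 3 higher in males (4.25%). Nothing is read from that count: 5 of the 6 met the rule in 1 sex only, SLC26A9, CD83 and LOC107323198 in females and MYBPC3 and LOC107305801 in males. SLC26A9, an anion transporter of epithelia, had a fitted difference, female minus male, of 2.78 log2 units (SE 0.552). Its EE2 males were at 0.136, 0.171, 0.486 and 0.203 CPM and its EE2 females between 0.873 and 4.40 CPM, with no overlap. CD83, a surface protein of dendritic and B cells, had 1.79 (SE 0.484), with males at 0.169, 0.547, 0.747 and 0.169 CPM and females at 0.822 to 2.44 CPM. LOC107323198 had 5.18 (SE 1.23), with replicate 1 at 13.2 CPM and the other females at 0.143 to 4.26 CPM. Of 3 cholangiocyte (bile duct cell) markers, SOX9 was at 4.34 to 5.64 CPM in exposed males and 10.3 to 31.7 in exposed females, SPP1 at 18.1 to 23 and 37.2 to 130 CPM, and EPCAM at 78.7 to 106 and 74.8 to 128 CPM. The summed list was at 105 to 132 CPM in EE2 males, 122 to 267 in EE2 females and 95.7 to 155 in solvent embryos. Its part in the values of these genes was not tested.

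In the other direction, LOC107305801 on the Z chromosome had a fitted difference of -2.13 log2 units (SE 0.436). The EE2 males were at 11.2, 31.4, 21.8 and 38.6 CPM, and the EE2 females ran from 1.51 to 13.5 CPM with a median of 5.05, so that 2 females lay within the male range. In solvent embryos it lay between 0.587 and 1.44 CPM in both sexes. CORIN was at 21.2, 20.8, 50.1 and 38.2 CPM in exposed males and 14.9 to 20.2 CPM in exposed females (-1.12, SE 0.313), without overlap. MYBPC3, cardiac myosin-binding protein C, had -5.68 (SE 1.06), with EE2 male 5 at 26.2 CPM, EE2 male 4 at 3.11 CPM and the other exposed embryos at 0.0349 to 0.431 CPM. Leaving out 1 library ended the CORIN call for EE2 males 5 and 6 and EE2 females 7, 8, 9 and 10 (-1.27 to -0.88 over all 20 fits), and the CD83 call for EE2 males 3 and 6 and EE2 females 9 and 10 (1.52 to 2.19). The MYBPC3 difference was -3.16 without EE2 male 5, and the gene no longer passed the filter without solvent male 2 or without EE2 female 1. The LOC107323198 call ended without EE2 male 3 or 4, and the gene no longer passed the filter without EE2 female 1, 2, 8 or 9. limma voom did not call MYBPC3 or LOC107323198, and a fit of the EE2 groups alone did not call those 2 or CD83. Leaving out EE2 male 5 raised the number of members called from 6 to 12, and leaving out EE2 males 5 and 6 together lowered it to 3.

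The difference between the female and male EE2 effects was called for 3 of 58 members (5.17%), beside 1.06% of all genes, with medians of 0.29 and 0.01. All 3 were lower values, beside 0.8% of all genes, and 0 members had a higher value that passed, beside 0.259%. Without adjustment 22 members had p under 0.05, beside 14.1% of all genes. The contrast shares its libraries with the sex contrasts above and holds the EE2 levels that chose the genes, so nothing is read from these counts; the 3 called loci met the rule in each sex alone. Their fitted values are given without a p-value: LOC107319873 had -5.22 log2 units (SE 0.730), LOC107317352 had -4.41 (SE 0.887) and LOC107317565 had -2.59 (SE 0.610). For each, most or all solvent females started above the solvent males, and the exposed sexes overlapped. The LOC107317565 call was lost in 16 of 20 fits that left out 1 library and the LOC107317352 call in 2, without solvent female 6 and without EE2 male 4. limma voom called none of the 3, and DESeq2 called 10 members.

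The position of the members along the chromosomes was not used to choose them. Of 59 placed members, 11 (18.6%) were directly beside another member, compared with 0.684% of the other 15212 placed genes. Within 3 steps in gene order it was 16 members (27.1%) and 1.99% of other genes. On chromosome 8, LOC107317565 and LOC107317352 were adjacent, and SPATA1 followed after CTBS, the gene for chitobiase. SPATA1 was at 0.173 to 2.87 CPM in solvent libraries and 39.0 to 189.5 CPM in EE2 libraries, while CTBS between them averaged 22.7 CPM in solvent and 21.2 CPM in EE2 embryos. On chromosome 1, NPTXR and LOC107314278 were separated by DNAL4 alone. SLC35E4 and TCN2 were adjacent on chromosome 15, KCNQ1 and CDKN1C on chromosome 5, LOC107323197 and LOC107323198 on chromosome 20, and LOC107315856, LOC107315857 and LOC107315860 in a row on chromosome 6. Adjacent locus-numbered genes may be related copies between which reads could be divided; their sequences were not used here, and that was not tested.

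**Figure D3:**
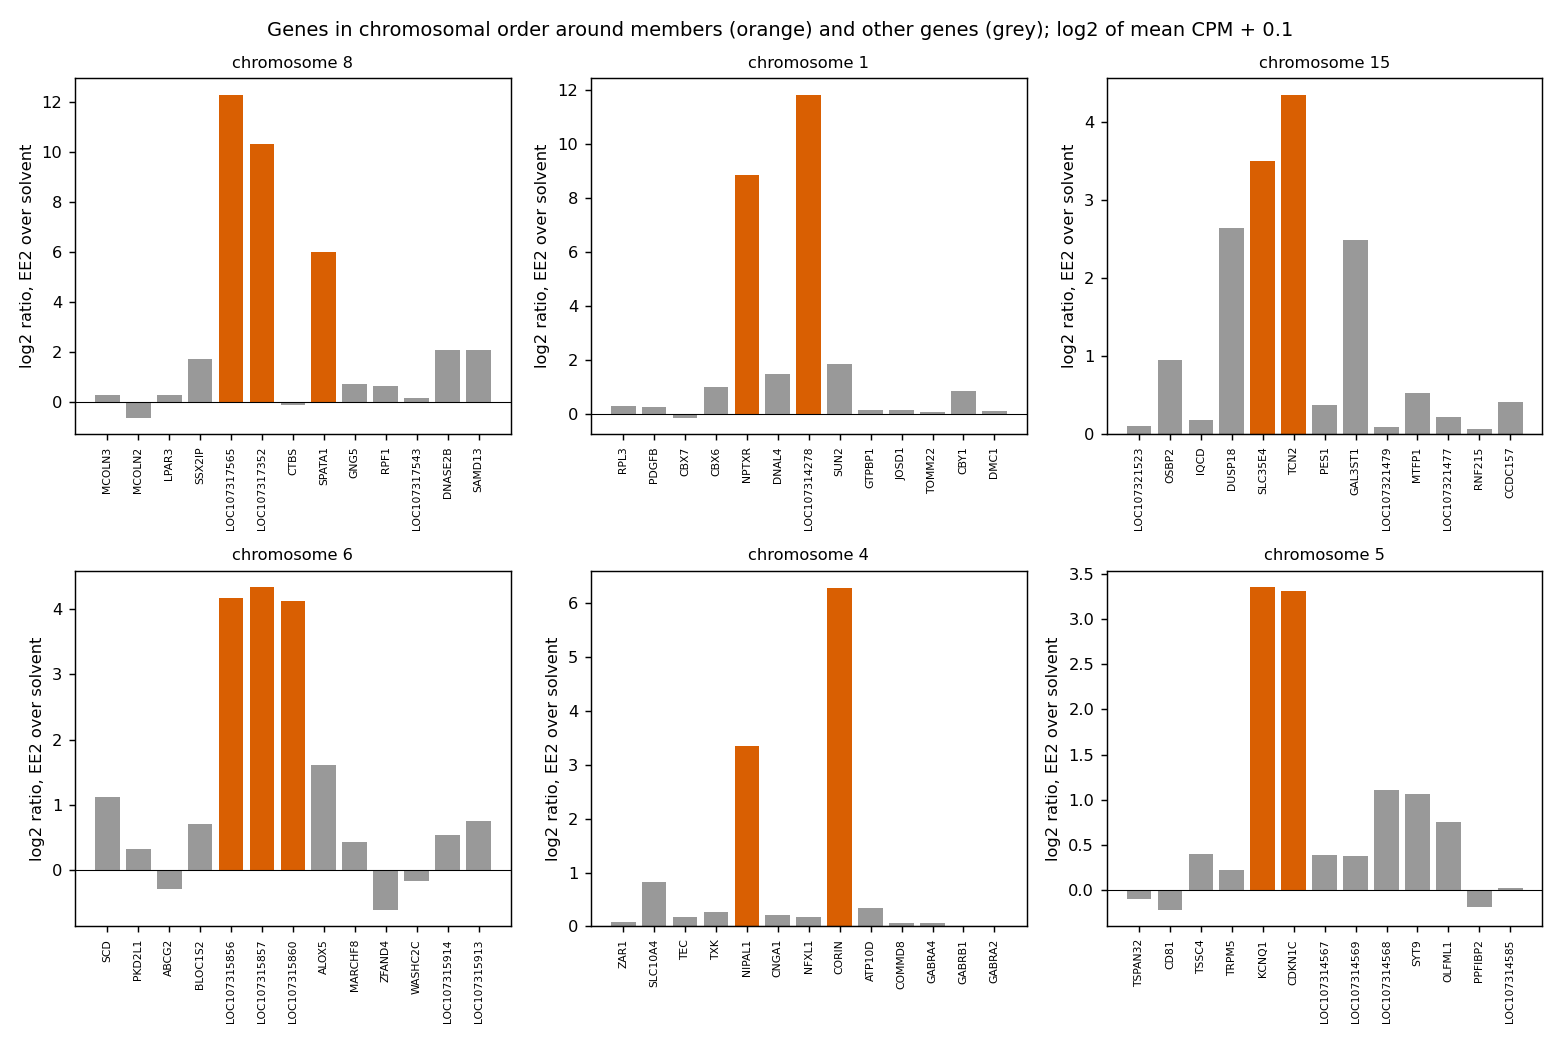
log2 ratio of the EE2 mean over the solvent mean (each CPM + 0.1) for genes in chromosomal order around 6 groups of members, members in orange and other genes in grey. The highest bars are the members, CTBS on chromosome 8 is near 0, and DNAL4 and SUN2 on chromosome 1 are above 0.

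The genes beside the members were not chosen by their level, and they were tested. Of 103 such genes 77 passed the filter on low counts. Among all genes tested, 3.27% were called after EE2 in males and 20.3% in females. In EE2 males 12 of 77 (15.6%) were higher and 0 lower than in solvent males, beside 2.24% and 1.03% of all genes tested. Of the genes not beside a member 1.81% were higher. In EE2 females 21 of 77 (27.3%) were higher and 5 lower, beside 10.2% and 10.1% of all genes tested. Of the genes not beside a member 9.72% were higher. The median log2 change was 0.13 and 0.22 for them, and -0.01 and 0.01 for the others. In males the share called higher was 9.20% at 2 steps, 4.82% at 3, 3.82% at 4 to 5 and 1.98% at 6 to 10. In females it was 16.1% at 2 steps, 8.43% at 3, 10.8% at 4 to 5 and 9.88% at 6 to 10.

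**Figure D4:**
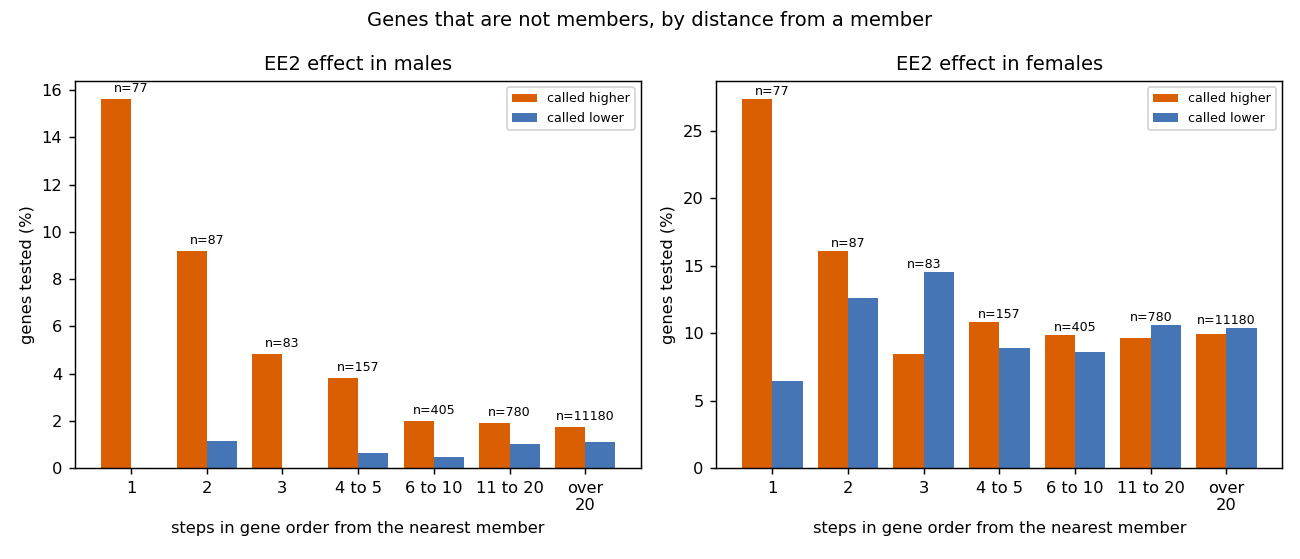
Share of tested genes that are not members called higher (orange) or lower (blue) after EE2 in males (left) and females (right), in percent, by steps in gene order from the nearest member; n is the number of genes tested. The share called higher is largest at 1 step, 15.6% in males and 27.3% in females.

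Of these genes 11 were called higher in both sexes, and they are named here for that, after their values were seen. SUN2, a nuclear envelope protein and neighbour of LOC107314278, went from 19.2 ± 2.81 to 54.0 ± 18.9 CPM in males and from 16.6 ± 3.04 to 70.5 ± 15.2 CPM in females (solvent to EE2, SD). It rose by 1.51 log2 units in males (SE 0.198, adjusted p = 8.97e-05, edgeR) and by 1.79 in females (SE 0.187, adjusted p = 2.47e-06). DNAL4, a dynein light chain between NPTXR and LOC107314278, rose by 1.06 (SE 0.120) and 1.49 (SE 0.113). SSX2IP, a centrosome and adhesion protein gene beside LOC107317565, rose by 1.90 (SE 0.219) and 1.44 (SE 0.203), from 1.47 to 5.36 CPM in males and from 1.80 to 5.90 CPM in females. RAB10, a vesicle transport GTPase beside GAREM2, rose by 1.21 and 1.0, ILDR1 beside LOC107319873 by 1.01 and 1.24, and TRDMT1 beside CUBN by 0.95 and 0.72. The others were CBX6, GNG5, ALOX5, LARP1 and DUSP18. For 8 of the 11, all 10 exposed libraries were above all solvent libraries, while CBX6 had 8, and ALOX5 and DUSP18 had 9. The calls that chose the 11 used these same libraries, so this separation is only a description. The share among other genes called higher in both sexes was not counted.

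In 9 members 1 library held over 50% of the EE2 sum, a feature singled out after the values were seen. GCG, proglucagon, was at 140 CPM in EE2 male 6 and at most 0.0374 CPM in the other exposed embryos. INS, insulin, was at 16 CPM there and at 0 in the other 19 libraries, and NKX6-1, an islet transcription factor, was at 7.68 CPM there. The endocrine pancreas list was added after these values were seen. Among all genes with a level of at least 1 CPM, EE2 male 6 was the highest exposed library for 4.89%. Of 11 other endocrine pancreas genes that are not members, 10 were highest in EE2 male 6 among the exposed. Examples were PAX6 and ISL1 at 2.16 CPM each and NEUROD1 at 1.18. The exception was SST, somatostatin, at 14.6 CPM in that library, 18.6 in EE2 female 7, 2.72 to 12.4 in the other exposed embryos and 1.14 to 6.01 in solvent embryos. The summed level of the 11 was 49.0 CPM in that library, 8.43 to 36.8 in the other exposed embryos and 7.55 to 17.8 in solvent embryos. Of the 11, NKX2-2 and IAPP were under 0.5 CPM in every library, so their rank rests on few counts. SST and PCSK2 made up most of the sum in EE2 male 6, and both were present in every library. PCSK2 was at 18.7 CPM in EE2 male 6 and 16.8 in EE2 female 7. CHGA was at 3.27 CPM in EE2 male 6 and higher, at 4.92, in solvent male 1. IAPP was at 0.101 CPM in EE2 male 6 and 0.134 in solvent male 4. Of 9 listed exocrine pancreas genes only 4 matched a symbol, and 3 of these were under 0.5 CPM in every library. The sum of the 4 reached at most 0.608 CPM in any library, and the rest of the list could not be measured. The part of pancreatic tissue in these values was not tested.

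MYBPC3, MB (myoglobin), LOC107323378 and LOC107323763 were highest in EE2 male 5. MYBPC3 was at 26.2 CPM, MB at 10.9, LOC107323378 at 12.1 and LOC107323763 at 8.66 CPM there. In EE2 male 4, MYBPC3 was at 3.11 CPM, MB at 1.03 and LOC107323378 at 3.73. LOC107323763 departed from them, at 0 CPM in EE2 male 4 and 2.54 CPM in EE2 female 7. The summed level of 7 striated muscle markers was 314 CPM in EE2 male 5, 75.9 CPM in EE2 male 4 and 12.7 to 40.7 CPM in the other 18 libraries. None of the 7 is a member, but MYL2, at 40.4 CPM in EE2 male 5, had been left out by name. ACTC1, TNNT2, MYL2, MYL3 and TNNI1 were highest in EE2 male 5. TNNC1 was not, at 21.3 CPM there and 33.2 in solvent female 10, nor was ACTA1, at 8.15 there and 8.17 in EE2 female 9. LOC107325197 was at 56.1 CPM in EE2 female 8 and at most 0.608 CPM in the other exposed embryos, and LOC107323198 held 62% of its EE2 sum in EE2 female 1. Without EE2 males 4, 5 and 6 together the rule gave 64 genes, of which 53 were among the 62. The part of muscle in these values was not tested.

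**Figure D5:**
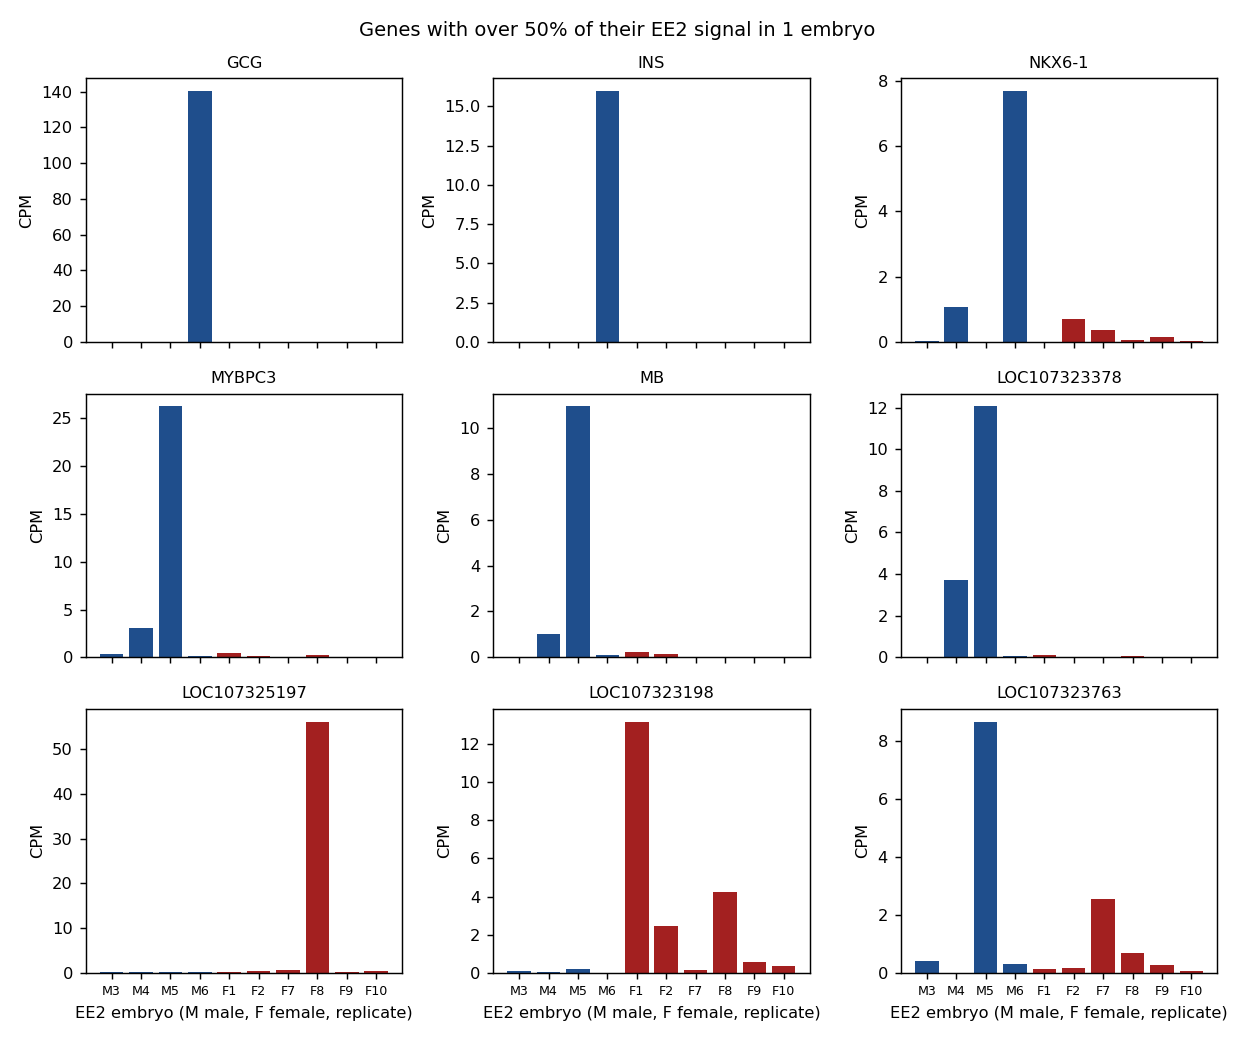
CPM of the 9 genes with over 50% of their EE2 sum in 1 library, in each of the 10 EE2 embryos (M male in blue, F female in red, with the replicate number). GCG, INS and NKX6-1 are highest in EE2 male 6, and MYBPC3, MB, LOC107323378 and LOC107323763 in EE2 male 5.

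The labelled tissue carried liver markers throughout. The sum of 9 hepatocyte genes was 142912 to 190857 CPM in solvent males and 184609 to 230975 in solvent females. It was 157043 to 215762 CPM in EE2 males and 96926 to 160168 in EE2 females, so every EE2 female lay below every solvent female. The summed genes did not move together. ALB was at 116439 to 143301 CPM in solvent females and 35195 to 79850 in EE2 females. APOB went the other way, from 9703 to 15980 CPM up to 37536 to 43550. APOB and TF are also in the yolk and egg list below. The share of hepatocytes was not tested. Genes of the estrogen pathway that are not members were measured beside them. Of 12 listed genes for yolk and egg proteins 6 matched a symbol. VTG1, VTG2, VTG3, APOV1, ZPD and RTBDN did not, so they could not be measured under those symbols. Whether any of these is among the locus-numbered members was not looked up. Of the 6 matched genes, 3 rose in EE2 males, and 3 rose and 2 fell in EE2 females. Beside them, 2.24% of all genes tested rose and 1.03% fell in males, and 10.2% rose and 10.1% fell in females. ZP1, an egg-coat glycoprotein, averaged 6.55 ± 5.93 CPM in solvent males and 84.4 ± 28.2 in solvent females, and 175 ± 54.2 and 300 ± 82.6 CPM after EE2 (SD). It was higher in solvent females by 3.78 log2 units (SE 0.460, adjusted p = 3e-05, edgeR), the direction seen for LOC107319873. APOB, the lipoprotein scaffold that carries yolk lipid, rose by 1.86 in males and 1.47 in females.

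Of 17 estrogen receptor and coregulator genes tested, 2 rose and 1 fell in males, and 4 rose and 5 fell in females, beside the same shares of all genes. ESR1, the estrogen receptor alpha gene, was at 5.05 ± 1.92 CPM in solvent males against 11.5 ± 1.81 in their female counterparts, higher in females by 1.26 log2 units (SE 0.235, adjusted p = 0.00314, edgeR). After EE2 it was at 7.43 ± 1.99 and 9.71 ± 1.36 CPM, a sex difference of 0.15 that did not pass the test (SE 0.236). GREB1, an estrogen-responsive gene that binds the receptor, was at 2.95 ± 0.937 CPM in EE2 males and 9.51 ± 3.65 CPM in EE2 females, higher in females by 1.46 (SE 0.283, adjusted p = 0.00348, edgeR). In solvent embryos it was at 2.53 ± 0.772 CPM in males and 3.01 ± 0.72 CPM in females. Its EE2 effect was 1.38 log2 units in females (SE 0.262) and 0.25 in males (SE 0.287), where it did not pass the test. For PGR, of the same list, the effect was -0.93 in females (SE 0.307), which passed, and -0.85 in males (SE 0.346), which did not.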

How the data were processed

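Sex and treatment came from the sample labels. The authors deposited estimated counts per coding sequence. The submitters' processing notes name kallisto; its version and the genome build are not given in the sources used here. The estimated counts are not whole for every value (52.64% were whole). Both deposited tables hold identical values for 40934 coding sequences each; rows were summed to 16066 gene IDs, whose symbols, chromosomes and gene order came from RefSeq (Coturnix japonica 2.1). No coordinates are printed. Coordinates served only to put the genes in order. RefSeq sequences were not used here, so no sequence is shown.

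CPM was taken over column sums, with no length scaling, so levels of different genes are not compared. Sums were rounded and tested with edgeR 4.0.16 (R 4.3.3): TMM scaling (factors 0.804 to 1.17), filterByExpr with a minimum count of 10 and a minimum total of 15 (13501 genes kept), a quasi-likelihood fit over the 4 groups, contrasts, and Benjamini-Hochberg adjustment over all genes tested at 0.05. The method was run on simulated data with a common spread for all genes and changes in EE2 females only. That setting is unlike members near 0 counts or high in a single library, so no conclusion on their calls is drawn from it. limma 3.58.1 and DESeq2 1.42.0 were alternatives, as were other scaling, no filter, only the groups compared, a replicate block and leaving out each library. No pair of libraries in a group agreed within sampling noise. The ratio for a gene with 0 solvent counts uses a floor of 3 counts over the 10 solvent libraries.

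The members and lists were chosen with earlier results of these data known, and the 2 pancreas lists were added after the values were seen. Members named by rule were the 10 of highest EE2 mean, the 10 of highest ratio, those called in a sex contrast or the difference of effects, the 3 nearest the threshold, and those in a list (25 in all). Choices by protein identity or promoter motif were not run. Other members are named for a known role, a neighbour or a single library, after their values were seen. Nothing in the labels says whether embryos shared parents, so each p reflects only how far these embryos varied. Intervals of counting error are not given, and the floor covers counting error only.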

Additional observations from a re-analysis of the deposited data

Results flagged for a closer look

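The named members were looked at in each group of 4 to 6 libraries, 99 combinations in all, and 14 held a library that stood far from the rest of its group. For normally distributed values chance gives such a library in about 1 of 20 groups. That rate was not measured here, and it need not hold for CPM taken without logs. Nor need it hold where most of a group is at or near 0, as for GCG and LOC107310248. The number of flags is therefore not set against that rate. In EE2 embryos, LOC107317574 was at 11348 CPM in female 7, LOC107314278 at 303 CPM in male 3, GCG at 140 CPM in male 6 and at 0.0359 CPM in female 1, and MYBPC3 at 26.2 CPM in male 5. Female 1 stood apart for LOC107323197 at 15.1 CPM and for LOC107323198 at 13.2 CPM, which lie side by side on chromosome 20. LOC107307580 was at 3.57 CPM in female 2 and SLC26A9 at 4.40 CPM in female 7.

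In solvent embryos the libraries that stood apart held low levels. LOC107317574 was at 0.489 CPM in female 6, LOC107314278 at 1.14 CPM in female 5, GCG at 0.107 CPM in female 3, LOC107310248 at 0.0335 CPM in male 4 and CD83 at 0.280 CPM in male 2.

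The edgeR fit of the difference between the EE2 effects flagged LOC107319873 (-5.22 log2 units, female minus male), LOC107317352 (-4.41) and LOC107317565 (-2.59). This contrast holds the levels that chose the genes, so no sex difference in the EE2 effect is read from it. Neither limma voom nor the fit with the replicate block called any of these loci. The LOC107317565 call was lost in 16 of 20 fits that each left out a library. For each locus, most or all solvent females lay above the solvent males, and the exposed sexes overlapped.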

How the results depend on the processing

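A ratio of at least 4 gave 126 members and one of at least 16 gave 36. Medians in place of means gave 57, of which only 45 were among the 62, and TMM-scaled CPM gave 58, all among the 62. Leaving out each library in turn gave 62 to 72, of which 58 to 62 were among the 62. Replicate numbers did not pair the samples: libraries with the same number correlated between -0.018 and 0.136 in their deviations, over 0.1 for 2 of 10 numbers. With the number as a replicate block, genes called were 52 in EE2 males, 877 in EE2 females, 47 for sex in solvent, 99 for sex in EE2 and 0 for the difference of effects (main values 441, 2737, 232, 873 and 143), and members called for these last 3 were 1, 1 and 0. The block turned CORIN's sex difference in EE2 embryos to 1.5, and left 5 genes beside members higher in males and 11 in females.

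Fitting only the groups compared gave 195 genes in EE2 males and 2 members for sex in solvent. DESeq2 gave 768 genes in EE2 males, 1311 for sex in EE2 (14 members) and 454 for the difference of effects (10 members). limma voom called 1, 10 and 0 members for sex in solvent, sex in EE2 and the difference. Without EE2 males 5 and 6 there were 141 genes in EE2 males, 3 members for sex in EE2 and 1 for the difference.

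Leaving out each library gave 234 to 647 genes in EE2 males (234 without EE2 male 5, 254 without EE2 male 4), 446 to 956 for sex in EE2 (446 without EE2 male 3) and 21 to 191 for the difference. Members called were 3 to 5, 4 to 12 and 1 to 4. The cause of these changes was not tested. Members under 2 CPM rest on few counts in most solvent libraries.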
